A study of Homo sapiens with 24 samples.

Results

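Cal-27 is an established squamous cell carcinoma line of the human tongue, and its erlotinib-resistant culture was compared here with its erlotinib-sensitive parent. The genes described are those with a probe that carries 1 gene symbol and was detected at p under 0.05 on 3 or more of the 12 arrays of the Cal-27 and SCC-25 table. They are 12758 genes, read by 17119 probes, of 20046 genes and 30113 probes with 1 symbol on the whole array.

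The study profiled resistant and sensitive cultures of 4 squamous carcinoma lines of the head and neck on 24 Illumina beadchip arrays. These print each probe on many beads and read the brightness of labelled cRNA bound to them. The Cal-27 resistant group (n = 3) was kept in serum-containing DMEM with erlotinib, and the Cal-27 sensitive group (n = 3) is the parental line in the same medium without it. SCC-25, another tongue line, gave a resistant (n = 3) and a sensitive (n = 3) group in the same table, grown in a DMEM and F12 mixture with hydrocortisone. All 4 groups received 0.01% DMSO, the drug's vehicle, for 48 h before RNA was taken. The erlotinib concentration, and whether the drug was present in those 48 h, are not given in the sources used here. The labels name 1 resistant culture of the line and do not say that the 3 arrays of a group came from separate cultures. The p-values therefore measure only the spread between these arrays, which may be technical, and resistance cannot be told apart from any other difference between the 2 cultures.

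Erlotinib blocks the tyrosine kinase of EGFR, a receptor that keratinocytes and squamous carcinomas use for growth and survival signals through ERK, AKT and STAT3. Squamous cells build a keratin skeleton anchored at desmosomes, and switch from basal to cornifying genes as they mature. NF-kB, the factor that inflammatory cytokines activate, drives chemokines, acute-phase proteins and its own inhibitors. ATF4, made when cells lack amino acids or when the endoplasmic reticulum is loaded, drives amino acid synthesis and import.

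Pearson correlations over the genes, which do not count as replicates, were 0.994 to 0.996 between arrays of 1 group and 0.966 to 0.967 between resistant and sensitive arrays. Each Cal-27 array detected 19612 to 20507 of 47231 probes, with a median of 20 or 21 beads a probe, and the number of arrays, 3 in a group, limits the precision. Levels are log2 intensities after background correction and quantile normalization. Changes are resistant minus sensitive on that scale, from 3 resistant and 3 sensitive arrays. Each ± value is limma's standard error. Its spread was estimated within the 4 groups of all 12 arrays, SCC-25 included, and drawn toward that of the other probes. A gene was called when limma's p, adjusted by Benjamini-Hochberg over all 17119 probes, was under 0.05.

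Resistant cells differed from their parent at 4700 of 12758 genes (36.8%), 2289 of them higher (17.9%) and 2411 lower (18.9%). At least a 2-fold change was called for 802 genes (6.29%), 461 higher (3.61%) and 341 lower (2.67%). Most calls were small: 2695 lay under 1.5-fold, and the median size of a called change was 0.53. Changes of 8-fold or more were called for 22 genes that were higher and 24 that were lower. The 3 resistant arrays lay wholly above the sensitive ones for 24.7% of genes and wholly below for 27% of genes, together 6595 genes (51.7%). The median change over all genes was -0.02. Folds depend on the background correction: of 146 genes followed across settings with a change of 2-fold or more, 87 had a fold over 1.5 times smaller without it. Lower bounds given as "at least" hold for the background-corrected values only.

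**Figure D1:**
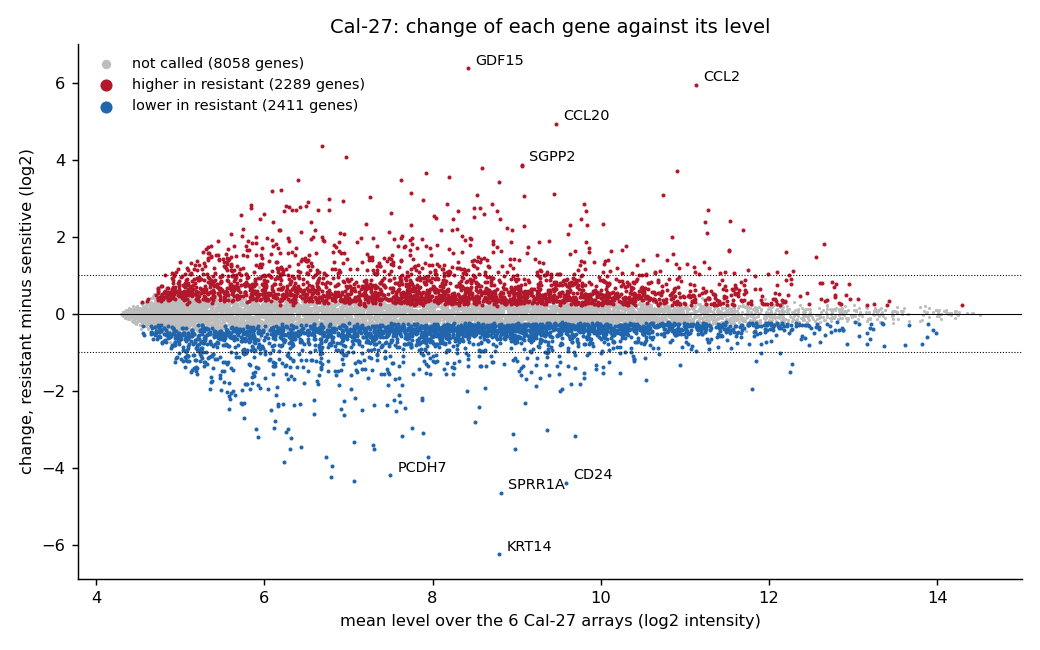
Change of each of the 12758 genes in Cal-27 (log2, resistant minus sensitive, vertical axis) against its mean level over the 6 arrays (log2 intensity, horizontal axis). Coloured points are the 2289 genes called higher and 2411 called lower, dotted lines mark 2-fold, and GDF15 and KRT14 lie at the extremes, at 6.37 and -6.24.

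The squamous identity of the line was checked first, against 17 epithelial markers of which 12 were measured. All 12 were detected on every sensitive array and 11 on every resistant array. Their summed intensity was 24000 to 25200 in resistant arrays and 35400 to 39000 in sensitive arrays, and 8 of the 12 fell while none rose. Both cultures thus kept most epithelial markers above background. Of 18 leukocyte markers 9 were measured, with summed intensities of 1280 to 1330 in resistant and 1310 to 1420 in sensitive arrays. Of 12 fibroblast markers 9 were measured, 3 of them on no Cal-27 array, and the sums were 996 to 1070 in resistant and 856 to 1010 in sensitive arrays. CDH5, the endothelial cadherin, was the only 1 of 12 endothelial markers measured, and it had levels of 9.98, 10.01 and 9.96 in resistant arrays, against 6.66, 6.33 and 6.28 in sensitive arrays. It rose by 3.56 ± 0.10, with no overlap, and the part of other cells in this was not tested.

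The keratins gave the largest fall. KRT14, the acidic keratin of basal cells, had levels of 5.56, 5.77 and 5.69 in resistant arrays, against 12.09, 11.77 and 11.89 in sensitive arrays. The groups lay far apart, and KRT14 fell by 6.24 ± 0.13 (limma adjusted p = 7.64e-12). Its basic partner KRT5 fell less: levels were 10.71, 10.86 and 10.90 in resistant and 12.90, 12.68 and 12.75 in sensitive arrays, a change of -1.96 ± 0.10 (limma adjusted p = 1.46e-08). KRT15, a further basal keratin, fell by 3.18 ± 0.13, and KRT16, a keratin of activated epidermis, fell by 3.72 ± 0.17. KRT13, a keratin of the moist oral lining, was on no resistant array above background, with levels of 4.31, 4.33 and 4.30, against 8.46, 7.97 and 8.03 in sensitive arrays. KRT13 was at least 9.46-fold lower (limma adjusted p = 8.6e-10), or 3.89-fold without background correction, and its partner KRT4, also undetected in resistant cells, was at least 3.45-fold lower. Of 9 stratified and basal keratins measured, 7 fell and 1 rose, with a median change of -2.10. The riser was KRT80, at 0.48 ± 0.08, and KRT10 was not called at -0.07 ± 0.09. KRT7, a keratin of simple epithelia, was detected on all 3 resistant arrays, at 6.78, 6.68 and 6.78, and on no sensitive array, where it read 4.93, 4.89 and 4.75. KRT7 was at least 3.48-fold higher (limma adjusted p = 2.3e-08). Fewer cells of a kind and less RNA per cell cannot be told apart in these bulk samples.

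Genes of later squamous maturation fell unevenly. Among 17 cornified envelope and late keratinocyte genes 8 fell, 1 rose and 8 were not called. SPRR1A, a small proline-rich precursor of the cornified envelope, had levels of 6.47, 6.21 and 6.81 in resistant arrays, against 11.53, 10.89 and 10.99 in sensitive arrays. SPRR1B, detected on 1 of 3 resistant arrays, fell by 3.00 ± 0.36, and SPRR2D, undetected in resistant cells, was at least 3.33-fold lower. The SPRR genes are closely similar, so a probe may read more than 1 of them. CALML3, a calmodulin-like protein of epithelia, rose by 0.42 ± 0.12, a call that ended under 5 of 16 other settings. None of 13 S100 genes rose and 8 fell, S100A7 by 1.58 ± 0.12 and S100A8, a subunit of calprotectin, by 1.54 ± 0.20. The S100A7 call ended with the authors' processed values (adjusted p = 0.091).

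Protease inhibitors and proteases of the epidermal surface fell more uniformly. Of 16 measured serpins and kallikreins 14 fell, 9 of them at least 2-fold, and 1 rose, with a median change of -1.11. SERPINB13, an inhibitor of cathepsins, had levels of 5.67, 5.53 and 5.48 in resistant and 9.29, 8.74 and 9.14 in sensitive arrays. PI3, the elastase inhibitor elafin, had 7.39, 7.54 and 7.28 in resistant and 11.08, 10.14 and 10.33 in sensitive arrays. Neither pair of groups overlapped, and the changes were -3.50 ± 0.14 for SERPINB13 and -3.11 ± 0.43 for PI3. KLK11, a kallikrein protease, fell by 2.34 ± 0.21.

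Cell contacts split by kind. Of 14 desmosome and gap junction genes 13 fell, none rose and only DSG2, a desmosomal cadherin, was not called (-0.12). PKP1, a plakophilin of the desmosomal plaque, was detected on 1 of 3 resistant arrays, with levels of 4.72, 5.08 and 4.88, against 9.54, 9.06 and 9.08 in sensitive arrays. The groups were separate, and PKP1 changed by -4.34 ± 0.13. GJA1, which encodes the gap junction protein connexin 43, changed by -3.31 ± 0.17, also without overlap. Cadherin and tight junction genes showed no common direction, with 5 of 18 higher (27.8%), 3 lower (16.7%) and a median change of 0.04. The shares over all genes were 17.9% higher and 18.9% lower. CLDN1, a claudin of tight junctions, rose by 0.78 ± 0.12 and ST14, a membrane protease of epithelia, by 1.24 ± 0.10. GRHL2, an epithelial transcription factor, fell by 0.70 ± 0.09. CD24, a surface glycoprotein, fell by 4.39 ± 0.24, and its resistant arrays spread widely, at 6.69, 8.12 and 7.38, against 11.84, 11.76 and 11.76 in sensitive arrays. Among hemidesmosome, laminin and integrin genes 5 of 18 rose (27.8%) and 7 fell (38.9%). ITGB5 and ITGAV, which pair as a vitronectin receptor, rose by 0.81 ± 0.09 and 0.64 ± 0.15, while DST, a hemidesmosomal plakin, fell by 1.34 ± 0.11.

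Mesenchymal genes did not move as a group. Of 19 measured, 6 rose (31.6%), 2 fell (10.5%) and 11 were not called, with a median change of 0.06. The shares over all genes were 17.9% higher and 18.9% lower. ACTA2 and TAGLN, both contractile smooth muscle proteins, rose by 1.94 ± 0.17 and 1.40 ± 0.11, and LOX, a collagen-crosslinking enzyme, by 1.70 ± 0.21. SNAI2, the EMT factor Slug, fell by 0.93 ± 0.10.

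Among 22 squamous lineage factors and Notch genes 13 fell and 2 rose. TEAD2, a partner of the Hippo pathway coactivator YAP, had levels of 4.71, 4.72 and 4.58 in resistant arrays, none above background, against 8.95, 8.81 and 8.96 in sensitive arrays. That makes TEAD2 at least 15.95-fold lower (limma adjusted p = 7.64e-12), or 5.03-fold without background correction. NOTCH3, a Notch receptor, had 6.31, 6.44 and 6.06 in resistant and 9.35, 9.10 and 9.28 in sensitive arrays, and its ligand JAG2 had 8.30, 8.22 and 8.36 in resistant and 10.26, 10.15 and 10.12 in sensitive arrays. Receptor and ligand fell by 2.97 ± 0.15 and 1.88 ± 0.11 with no overlap of the groups. DLL1, another Notch ligand, rose by 0.71 ± 0.09. Among 24 BMP and TGF-beta response genes 10 fell and 2 rose. BMP7, a bone morphogenetic protein, fell by 3.46 ± 0.13, detected on 1 of 3 resistant arrays, and the BMP-induced inhibitors ID1 and ID3 fell by 1.69 ± 0.11 and 1.91 ± 0.14.

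**Figure D2:**
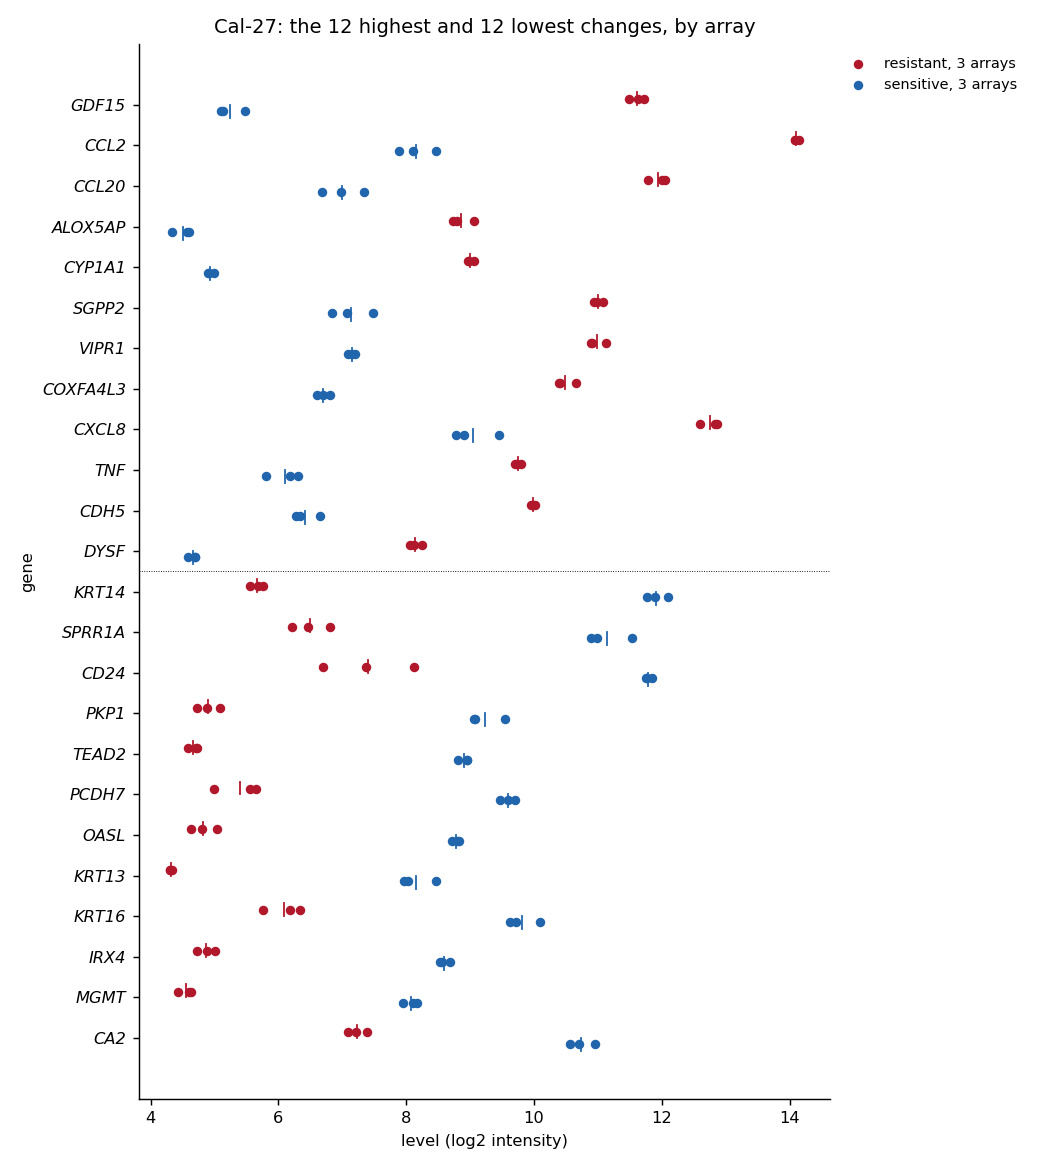
Level (log2 intensity) of the 12 highest and the 12 lowest changes in Cal-27 on each array, resistant points above sensitive points and short vertical lines at the group means. No gene's groups overlap, and the widest spread is that of CD24 in resistant arrays, from 6.69 to 8.12.

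In the EGFR family the ligands moved apart. HBEGF, a ligand of EGFR and ERBB4, had levels of 9.86, 9.81 and 9.94 in resistant arrays, against 7.10, 7.21 and 7.06 in sensitive arrays. NRG1, the ligand of ERBB3 and ERBB4, had 8.62, 8.60 and 8.32 in resistant arrays, against 10.42, 10.52 and 10.60 in sensitive arrays. HBEGF rose by 2.74 ± 0.13 (limma adjusted p = 7.30e-09) and NRG1 fell by 2.00 ± 0.10 (limma adjusted p = 1.55e-08), with both pairs of groups apart. Of 12 measured members 6 rose and 2 fell. LRIG1 and ERRFI1, both inhibitors of EGFR, rose by 1.74 ± 0.12 and 1.00 ± 0.14. ADAM17, the protease that sheds most EGFR ligands, rose by 0.96 ± 0.10, while ADAM10 stood at 0.02 ± 0.11 and was not called. Smaller calls ended under several of 16 other settings, 8 for EREG (0.45), 8 for TGFA (-0.29) and 4 for ERBB3 (0.42). With the mean of its probes ERBB3 turned to -0.07, since its 2 probes were called in opposite directions. EGFR itself had levels of 11.15, 11.23 and 11.21 in resistant and 11.19, 11.23 and 11.35 in sensitive arrays on its brightest probe, overlapping groups with no call (limma adjusted p = 0.629). Of its other probes 1 rose, by 0.32 ± 0.10, and 1 fell, by 0.65 ± 0.10, so these data give EGFR no single direction.

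Other kinases and ligands went both ways, with 10 of 28 higher (35.7%) and 9 lower (32.1%), against 17.9% and 18.9% over all genes. VEGFA, the vascular growth factor, had levels of 10.58, 10.64 and 10.63 in resistant and 7.50, 7.58 and 7.56 in sensitive arrays, a change of 3.07 ± 0.13. MERTK, a receptor kinase of the TAM family, was detected on the resistant arrays alone and was at least 5.07-fold higher. EFNA1, an ephrin, rose by 1.22 ± 0.10. IRS1, the insulin receptor adaptor, fell by 1.34 ± 0.13, and FGFBP1, a carrier of fibroblast growth factors, by 1.22 ± 0.08.

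Readouts of ERK signalling rose more often than they fell, but did not all share a direction. Of 20 measured, 9 rose (45%), 3 fell (15%) and 8 were not called, with a median of 0.22. The shares over all genes were 17.9% higher and 18.9% lower. ETV5, an ETS factor that ERK induces, had levels of 9.36, 9.21 and 9.26 in resistant arrays, against 6.72, 6.90 and 6.77 in sensitive arrays. EGR1, an immediate-early factor, had 5.55, 5.63 and 5.72 in resistant arrays, against 8.05, 8.47 and 8.27 in sensitive arrays. ETV5 rose by 2.48 ± 0.10 and EGR1 fell by 2.63 ± 0.23, each with separate groups. The ERK inhibitors SPRY2 and SPRY4 both rose by 1.14, while EPHA2 fell by 0.89 ± 0.09. Immediate-early factors divided, 6 of 16 higher (37.5%) and 8 lower (50%), JUND at 1.03 ± 0.11 and FOSL1 at -1.10 ± 0.11.

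The D cyclins moved in opposite directions. CCND2 had levels of 12.66, 12.60 and 12.59 in resistant arrays, against 9.75, 10.04 and 10.01 in sensitive arrays, and rose by 2.69 ± 0.11 (limma adjusted p = 2.01e-09). CCND1 had 12.03, 12.14 and 12.07 in resistant arrays, against 12.77, 12.91 and 12.95 in sensitive arrays, and fell by 0.80 ± 0.09. CCND3 fell by 0.63 ± 0.09 and their kinase partner CDK6 by 0.89 ± 0.09, while CDK4 was not called at -0.01 ± 0.11. These are changes within each gene, and levels of different probes are not compared. CDK inhibitors went both ways: CDKN1A, the p21 gene, rose by 0.82 ± 0.11 and CDKN2A, the p16 and p14ARF gene, by 0.80 ± 0.14. CDKN1B and CDKN1C rose by 0.43 and 0.46 and CDKN2B fell by 0.445, calls each kept under 10 of 16 other settings. CDKN2D was not called at -0.31. Of 18 measured G1 cyclin and CDK inhibitor genes 7 rose (38.9%) and 5 fell (27.8%), against 17.9% and 18.9% over all genes. The CDKN2A call ended with the authors' processed values (adjusted p = 0.179). CCNG2, a cyclin of resting cells, rose by 1.93 ± 0.14. Among 19 FOXO and quiescence-type genes 10 rose and 3 fell, KLF9, a hormone-responsive factor, by 2.70 ± 0.14 upward and ARRDC3, an arrestin-like adaptor, by 1.85 ± 0.12 upward.

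Cell division genes fell modestly. Of 40 mitotic genes 25 fell and 1 rose, with a median of -0.30, and of 39 DNA replication genes 19 fell and none rose, with a median of -0.27. None of these falls reached 2-fold. AURKB, a kinase of chromosome segregation, had levels of 10.09, 9.88 and 10.13 in resistant and 10.84, 10.76 and 10.72 in sensitive arrays. RRM2, the ribonucleotide reductase subunit, had 9.16, 9.23 and 9.04 in resistant and 9.75, 10.03 and 9.99 in sensitive arrays. Both were lower on every resistant array, by -0.73 ± 0.10 and -0.78 ± 0.12. The 1 rise, CDC25C at 0.26, was called under only 7 of 16 other settings.

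NF-kB genes and chemokines rose together. Of 22 NF-kB subunits and feedback genes 17 rose and 1 fell, with a median of 0.88, and of 13 chemokines 9 rose and 2 fell, with a median of 0.81. These compare with 17.9% higher, 18.9% lower and a median of -0.02 over all genes. CXCL8, the neutrophil chemokine interleukin-8, had levels of 12.85, 12.82 and 12.60 in resistant arrays, against 9.46, 8.91 and 8.78 in sensitive arrays. TNF, the cytokine that itself activates NF-kB, had 9.80, 9.74 and 9.71 in resistant arrays, against 6.18, 5.80 and 6.31 in sensitive arrays. ICAM1, a leukocyte adhesion receptor, had 8.74, 8.90 and 8.77 in resistant arrays, against 6.64, 6.05 and 5.90 in sensitive arrays. No groups overlapped, and the changes were 3.71 ± 0.18, 3.65 ± 0.12 and 2.61 ± 0.21. RELA, the p65 subunit, was the member that fell, by 0.68 ± 0.15, and NFKB2 was not called at 0.24. Inhibitors of the pathway rose: NFKBIA, the IkB-alpha gene, by 1.14 and TNFAIP3, the A20 gene, by 1.72. NFKB2, NFKBIA and TNFAIP3 were named after their values were seen. SGPP2, a sphingosine phosphatase, rose by 3.87 ± 0.15, with levels of 10.99, 11.08 and 10.94 in resistant and 7.48, 6.84 and 7.07 in sensitive arrays.

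Promoters of these genes are shown because an NF-kB site is known to lie close to the start of several of them. The windows run from 250 bases before to 50 after the RefSeq start, on GRCh38.p14, 5′ to 3′ on the gene's strand. Capitals mark GGNNTTTCC on either strand, except in the last 2, where capitals also mark TTTCNNTTTC on either strand, the core of the interferon-stimulated response element. CCL20 lies at chr2:227813592-227813891 (+), CXCL8 at chr4:73740319-73740618 (+), IL6 at chr7:22726950-22727249 (+), ICAM1 at chr19:10270870-10271169 (+), CXCL10 at chr4:76023448-76023747 (-) and IFITM1 at chr11:313790-314089 (+).
CCL20: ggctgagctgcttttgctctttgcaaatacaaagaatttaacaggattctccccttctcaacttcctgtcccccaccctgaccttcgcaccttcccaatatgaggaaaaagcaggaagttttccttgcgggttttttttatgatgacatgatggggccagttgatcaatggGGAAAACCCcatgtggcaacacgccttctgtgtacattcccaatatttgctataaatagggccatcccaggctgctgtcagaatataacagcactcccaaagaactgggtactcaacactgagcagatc
CXCL8: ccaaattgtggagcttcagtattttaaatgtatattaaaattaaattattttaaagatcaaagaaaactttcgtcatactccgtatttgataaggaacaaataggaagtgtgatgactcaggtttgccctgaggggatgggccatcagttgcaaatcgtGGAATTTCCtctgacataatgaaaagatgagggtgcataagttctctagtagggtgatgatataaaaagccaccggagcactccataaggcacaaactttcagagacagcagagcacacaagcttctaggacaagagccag
IL6: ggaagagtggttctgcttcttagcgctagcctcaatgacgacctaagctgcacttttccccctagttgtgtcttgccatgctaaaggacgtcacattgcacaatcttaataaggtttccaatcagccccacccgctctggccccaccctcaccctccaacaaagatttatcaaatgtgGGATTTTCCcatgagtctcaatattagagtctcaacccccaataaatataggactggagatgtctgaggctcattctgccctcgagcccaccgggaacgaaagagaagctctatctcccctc
ICAM1: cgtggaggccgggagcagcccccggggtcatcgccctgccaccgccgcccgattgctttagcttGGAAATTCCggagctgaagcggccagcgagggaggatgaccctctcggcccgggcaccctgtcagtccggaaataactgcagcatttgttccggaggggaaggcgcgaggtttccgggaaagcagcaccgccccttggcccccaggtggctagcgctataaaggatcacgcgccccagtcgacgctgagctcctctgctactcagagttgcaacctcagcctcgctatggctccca
CXCL10: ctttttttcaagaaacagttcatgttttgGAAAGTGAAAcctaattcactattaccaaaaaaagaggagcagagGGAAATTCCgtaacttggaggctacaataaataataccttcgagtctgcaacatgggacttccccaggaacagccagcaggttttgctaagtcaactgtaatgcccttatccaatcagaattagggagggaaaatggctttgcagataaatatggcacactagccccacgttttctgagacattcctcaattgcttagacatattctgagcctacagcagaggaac
IFITM1: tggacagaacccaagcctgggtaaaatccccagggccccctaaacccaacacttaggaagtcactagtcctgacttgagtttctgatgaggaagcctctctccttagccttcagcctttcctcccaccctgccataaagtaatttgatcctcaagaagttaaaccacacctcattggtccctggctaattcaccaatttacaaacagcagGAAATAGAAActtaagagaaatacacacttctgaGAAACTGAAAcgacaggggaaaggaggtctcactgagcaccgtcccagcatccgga

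GGNNTTTCC starts at base 172 in CCL20, 160 in CXCL8, 179 in IL6, 65 in ICAM1 and 75 in CXCL10, counted from the 5′ end. Among 7275 tested genes with a single promoter window, 6.85% held it. It was in all 5 such chemokine genes that rose, in 5 of 8 risers of the NF-kB list and in 1 of 6 risers among complement and acute-phase genes. Of members with a window, risers or not, 6 of 8 chemokine genes and 6 of 9 of the NF-kB list held it. The complement and acute-phase list had it in 1 of 8, and the 1 chemokine gene with a window that fell lacked it. The share was 10.3% of 223 genes at least 2-fold higher and 6.95% of 187 genes at least 2-fold lower. A match describes these letters only, and NF-kB binding was not measured.

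Secreted complement and acute-phase proteins rose with them. Of 16 measured 12 rose, all 12 at least 2-fold, and 1 fell, with a median of 2.02. CFB, factor B of the alternative complement pathway, had levels of 11.23, 11.26 and 11.17 in resistant arrays, against 8.30, 8.40 and 8.44 in sensitive arrays. SAA2, a serum amyloid A gene, had 8.10, 8.39 and 8.29 in resistant arrays, against 5.47, 4.96 and 5.40 in sensitive arrays. The 2 rose by 2.84 ± 0.12 and 2.98 ± 0.15, and no groups overlapped, although SAA2 is nearly identical to SAA1, so its probe may read both. PTX3, a pentraxin, was detected on the resistant arrays alone and was at least 4.97-fold higher, or 2.36-fold without background correction. LCN2, lipocalin-2, an iron carrier of innate defence, rose by 2.41 ± 0.20. CD59, an inhibitor of the complement pore, fell by 0.75 ± 0.11.

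The interleukin-1 pathway changed at some of its members, ligands and inhibitors among them. Of 18 measured 8 rose (44.4%), 2 fell (11.1%) and 8 were not called, with a median of 0.17. This compares with 17.9% higher and 18.9% lower over all genes. IL1A had levels of 12.31, 12.28 and 12.24 in resistant arrays, against 9.26, 9.22 and 9.10 in sensitive arrays, and IL1B had 11.54, 11.36 and 11.40, against 10.05, 9.77 and 9.90 in sensitive arrays. IL1RN, the secreted receptor antagonist, was on no resistant array above background, at 4.36, 4.43 and 4.44, and had 5.83, 5.42 and 5.31 in sensitive arrays. The groups of IL1A and of IL1B lay apart, and IL1RN was at least 1.52-fold lower (limma adjusted p = 0.000136). IRAK2 and IRAK3, a kinase of the receptor complex and its inhibitory relative, rose by 2.24 ± 0.14 and 2.11 ± 0.13. The adaptor MYD88 fell by 0.76 ± 0.10 and the receptor IL1R1 was not called at -0.16 ± 0.18. The ligands IL18 and IL36G were not called either, at 0.09 and -0.21. Toll-like receptor 4, TLR4, was detected on the resistant arrays alone and was at least 1.64-fold higher. In the IL-6 family 7 of 13 rose and 1 fell. LIF, an IL-6 family cytokine, rose by 1.40 ± 0.20, and OSMR, the oncostatin M receptor, by 0.87 ± 0.11. SOCS3, the feedback inhibitor of STAT3, fell by 0.57 ± 0.17 on its brightest probe, a call kept under 11 of 15 other settings. Its other probe was not called, at 0.21 ± 0.15. Resistant means of 5.11 and 5.44 on these probes lay close to the lowest level detected on those arrays, 4.9 to 4.93.

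Interferon genes split. Of 40 type I interferon-stimulated genes 24 fell, 13 of them at least 2-fold, and 5 rose, with a median of -0.54. OASL, a relative of the antiviral oligoadenylate synthetases, had levels of 5.04, 4.63 and 4.80 in resistant arrays, against 8.72, 8.79 and 8.83 in sensitive arrays, and was detected on 1 of 3 resistant arrays. RSAD2, the antiviral protein viperin, had 4.75, 4.71 and 4.70 in resistant arrays, against 7.91, 8.02 and 7.86 in sensitive arrays. IFI27, a mitochondrial interferon-induced protein, had 7.81, 7.87 and 7.88 in resistant arrays, against 10.96, 10.83 and 10.80 in sensitive arrays. RSAD2 was above background in sensitive cells alone and was at least 8.09-fold lower, and OASL and IFI27 fell by 3.95 ± 0.16 and 3.01 ± 0.10. IFITM1, a membrane restriction factor whose promoter is shown above, went the other way, with 10.06, 10.24 and 10.27 in resistant arrays, against 9.35, 9.26 and 9.29 in sensitive arrays, and rose by 0.89 ± 0.14. TTTCNNTTTC was in 8 of 13 promoters of the genes that fell, in 2 of 3 of those that rose and in 2.9% over all tested genes, so its presence did not separate the 2 directions. None of 14 IFN-gamma-type genes fell and 9 rose, CXCL10, a T cell chemokine, by 1.80 ± 0.11.

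HLA class II genes, which present peptides to helper T cells, rose almost throughout. Of 12 measured 10 rose, 9 at least 2-fold, and none fell, with a median of 1.58. HLA-DRA had levels of 11.23, 11.17 and 11.14 in resistant arrays, against 9.33, 9.33 and 9.57 in sensitive arrays. CD74, the invariant chain, had 11.05, 11.03 and 11.14 in resistant arrays, against 9.45, 9.36 and 9.45 in sensitive arrays. CIITA, the coactivator that class II genes need, had 6.36, 6.33 and 6.56 in resistant arrays, against 5.09, 4.88 and 4.78 in sensitive arrays, where it was detected on 1 of 3. All 3 were higher on every resistant array, by 1.77 ± 0.10, 1.66 ± 0.10 and 1.50 ± 0.12. The peptide exchange genes HLA-DMB and HLA-DMA rose by 2.66 ± 0.17 and 2.47 ± 0.11, and HLA-DPA1 by 1.86 ± 0.12. HLA-DRB1, HLA-DRB3 and HLA-DRB4 rose by 1.79, 1.28 and 1.21, but these near-identical genes may share probe signal. HLA-DOB, a brake on peptide exchange, and IFI30, a lysosomal reductase, were not called at 0.03 ± 0.10 and 0.08 ± 0.10. With the authors' processed values the calls of CD74 and HLA-DRB1 ended (adjusted p = 0.058 and 0.083) at changes of 1.68 and 1.91. Class I and peptide loading genes rose less, 8 of 16 with none at 2-fold, HLA-B by 0.94 ± 0.09.

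Of 37 measured genes of the ATF4 amino acid response 34 rose, 19 of them at least 2-fold, and 1 fell, with a median of 1.00. GDF15, a stress cytokine, had levels of 11.48, 11.62 and 11.72 in resistant arrays, against 5.13, 5.48 and 5.10 in sensitive arrays, 82.9-fold apart (limma adjusted p = 1.93e-11), or 24.9-fold without background correction. ASNS, asparagine synthetase, had 12.33, 12.44 and 12.52 in resistant arrays, against 9.99, 10.11 and 10.04 in sensitive arrays. SLC7A11, the cystine importer, had 7.15, 7.31 and 7.36 in resistant arrays, against 5.46, 5.37 and 5.05 in sensitive arrays. Resistant arrays were higher without overlap, ASNS by 2.39 ± 0.23 and SLC7A11 by 1.98 ± 0.16. NUPR1, a stress-induced chromatin protein, and STC2, a secreted glycoprotein, rose by 2.94 ± 0.32 and 2.67 ± 0.17, and the ATF4 transcript itself by 0.78. CTH, the enzyme that makes cysteine from cystathionine, fell by 0.74 ± 0.15. Of 23 chaperones and unfolded protein response genes 15 rose and 2 fell, with a smaller median of 0.33, and XBP1, a factor of that response, rose by 1.30 ± 0.11. The motif TGATGNAA, from the ATF4 and C/EBP composite site, was in 4 of 15 promoters of ATF4-list genes that rose and in 1.57% over all tested genes.

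**Figure D3:**
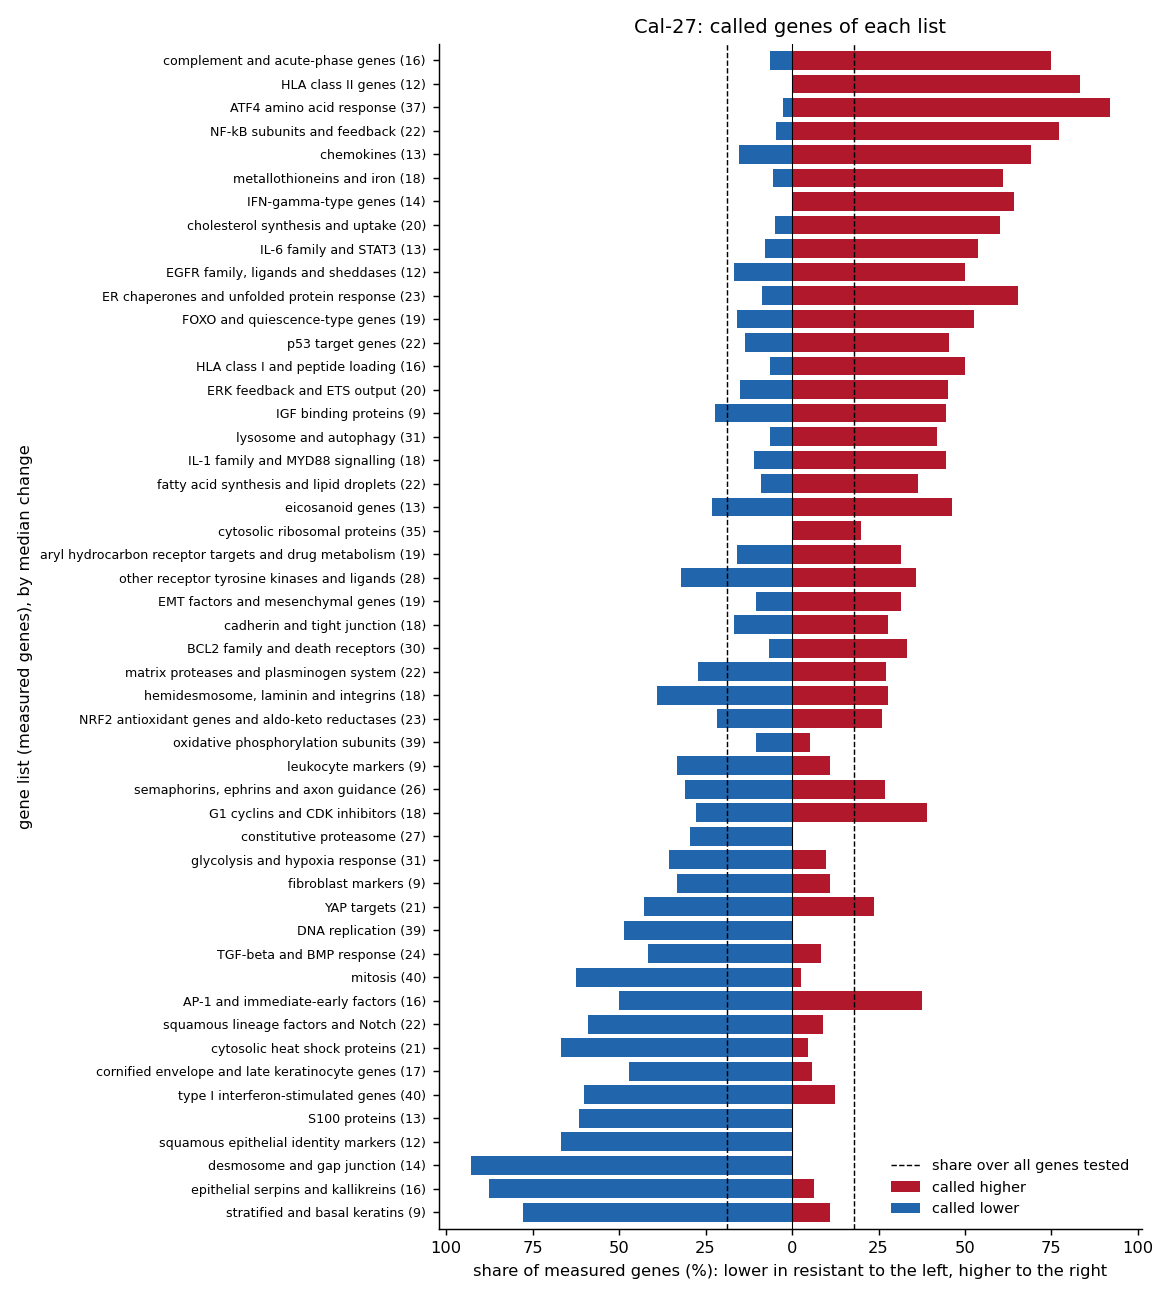
Share of the measured genes of each list of 9 or more that were called higher (right) or lower (left) in Cal-27 resistant cells, ordered by median change, with dashed lines at 17.9% and 18.9%, the shares over all genes. Complement, HLA class II and ATF4 genes stand at the top and desmosome genes, serpins and keratins at the bottom.

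Lipid and lysosome genes rose in part. Of 20 cholesterol genes 12 rose and 1 fell, with a median of 0.48, SC5D and MSMO1, both sterol enzymes, by 1.55 ± 0.12 and 1.00 ± 0.12. INSIG1, the sterol sensor that restrains the pathway, fell by 0.60 ± 0.15. Of 22 genes of fatty acid synthesis and lipid droplets 8 rose, 2 fell and 12 were not called. FADS1, a fatty acid desaturase, rose by 1.43 ± 0.12 and ACSS2, which makes acetyl-CoA from acetate, by 1.55 ± 0.13. ELOVL1, a fatty acid elongase, fell by 0.49, and ACLY, which makes acetyl-CoA from citrate, by 0.27, a call kept under 8 of 16 other settings. Of 31 lysosome and autophagy genes 13 rose and 2 fell, WIPI1 by 0.93 ± 0.14, none at 2-fold.

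Eicosanoid genes changed at single steps. ALOX5AP, the protein that presents arachidonic acid to 5-lipoxygenase, had levels of 8.72, 8.79 and 9.05 in resistant arrays and was undetected in sensitive arrays, at 4.61, 4.57 and 4.34. PTGS2, the inducible cyclooxygenase COX-2, had 9.41, 9.37 and 9.16 in resistant and 6.31, 5.96 and 6.25 in sensitive arrays. ALOX5AP was at least 15.0-fold higher, or 5.19-fold without background correction, and PTGS2 rose by 3.14 ± 0.14. The constitutive enzyme PTGS1 fell by 0.42 ± 0.11, a call kept under 14 of 16 other settings, and the prostaglandin receptor PTGER2 fell by 1.15 ± 0.15. Of 13 in all, 6 rose (46.2%) and 3 fell (23.1%), against 17.9% and 18.9% over all genes.

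Detoxification genes also divided. CYP1A1, the main aryl hydrocarbon receptor target, had levels of 8.99, 8.96 and 9.06 in resistant arrays, against 4.91, 4.99 and 4.89 in sensitive arrays, where it was detected on 1 of 3. CYP1A1 rose by 4.07 ± 0.11. Of 19 measured genes of aryl hydrocarbon receptor targets and drug metabolism, 6 rose (31.6%), 3 fell (15.8%) and 10 were not called. Over all genes 17.9% rose and 18.9% fell. The largest fall in this list was that of CYP2S1, at -1.39. The motif TNGCGTG holds the core that the aryl hydrocarbon receptor recognises. It was in 0 of 10 promoters of this list and in 7.23% over all tested genes. The other measured genes of the list have no single window, and sites more than 250 bases before the start were not searched. With 10 promoters, 0 matches cannot be told apart from that share. Of 23 NRF2 and aldo-keto reductase genes 6 rose (26.1%) and 5 fell (21.7%). AKR1C2 and AKR1C3, close relatives whose probes may cross-read, were among those that fell. AKR1C2, detected on 1 of 3 resistant arrays, fell by 2.39 ± 0.14, and AKR1C3, undetected in resistant cells, was at least 2.07-fold lower. MGMT, which removes alkyl groups from guanine in DNA, had 4.60, 4.43 and 4.63 in resistant arrays, none above background, against 7.95, 8.10 and 8.16 in sensitive arrays. It was at least 8.92-fold lower (limma adjusted p = 2.39e-10), or 3.29-fold without background correction. Of 18 metallothionein and iron genes 11 rose, MT1M by 1.84 ± 0.10, and 1 fell, MT1X at -0.55 ± 0.14. Without background correction the MT1M rise was 1.66-fold. Whether these probes read more than 1 metallothionein gene was not tested.

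Proteases of the matrix went both ways, 6 of 22 higher and 6 lower. That is 27.3% in each direction, against 17.9% higher and 18.9% lower over all genes. PLAU and PLAT, the urokinase and tissue plasminogen activators, rose by 1.81 ± 0.09 and 2.08 ± 0.10. ADAMTS1, MMP13 and MMP7, all metalloproteases, fell by 2.51 ± 0.14, 1.94 ± 0.15 and 1.86 ± 0.18. IGFBP6, a binder of insulin-like growth factor 2, fell by 2.59 ± 0.12.

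Some of the largest changes belong to none of the groups above. VIPR1, a receptor for vasoactive intestinal peptide, had levels of 10.90, 10.91 and 11.12 in resistant arrays, against 7.20, 7.09 and 7.15 in sensitive arrays. CA2, carbonic anhydrase 2, had 7.38, 7.21 and 7.08 in resistant arrays, against 10.96, 10.70 and 10.56 in sensitive arrays. The groups of both lay apart, with changes of 3.83 ± 0.15 for VIPR1 and -3.52 ± 0.13 for CA2. PCDH7, a protocadherin, was lower on every resistant array, with a change of -4.19 ± 0.17. IRX4, a homeobox factor, was detected on 1 of 3 resistant arrays and changed by -3.72 ± 0.09.

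Housekeeping lists had small medians. Of 39 oxidative phosphorylation genes 2 rose and 4 fell, of 35 ribosomal protein genes 7 rose and none fell, and of 27 proteasome genes none rose and 8 fell. Their medians were -0.02, 0.09 and -0.11. Over all genes 17.9% rose and 18.9% fell. Of oxidative phosphorylation genes 5.13% rose and 10.3% fell, and 29.6% of proteasome genes fell. The 20% of ribosomal protein genes that rose was near the share over all genes. Of 21 cytosolic heat shock genes 14 fell and 1 rose, with a median of -0.40, HSP90AA1 and HSPA1A both by 0.79 ± 0.09 downward. The riser, HSPB8, a small heat shock protein, had levels of 7.39, 7.79 and 7.54 in resistant and 4.79, 5.02 and 4.90 in sensitive arrays, 1 of which detected it.

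Detection switched at 237 of the 12758 genes. Such a gene already passes the 3-array detection filter through the group that detects it, so these counts carry no test. Resistant arrays alone detected 121 genes on all 3 arrays with none of the sensitive arrays doing so, and the reverse held for 116. Among the first were DYSF, the membrane repair protein dysferlin, at least 9.15-fold higher, and MIR3142HG, a microRNA host transcript, at least 7.25-fold higher. Among the reverse were PTPRG, a receptor phosphatase, at least 6.48-fold lower, and BCL11B, a zinc finger factor of keratinocytes and T cells, at least 5.6-fold lower. MIR3142HG, PTPRG and BCL11B were named after their values were seen.

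Neighbouring genes moved together in a few stretches. In RefSeq order (GRCh38.p14), 12738 placed genes were divided into 626 windows of 20 tested genes, and in 11 windows 10 or more genes were called higher and in 11 windows 10 or more were called lower. On chromosome 11, 7 windows in a row, from CASP1 to ST14, held 140 genes, of which 92 rose (65.7%) and 2 fell, with a median change of 0.58. On chromosome 14, 3 windows in a row, from CLMN to ZBTB42, held 60 genes, of which 39 fell (65.0%) and 3 rose, with a median of -0.78. On chromosome 7, 2 windows in a row, from ARHGEF5 to ACTR3B, held 40 genes, of which 26 fell and 4 rose. The first 2 stretches in SCC-25 had 18 higher and 25 lower of 140, and 7 higher and 11 lower of 60. Such windows are not particular to Cal-27, since SCC-25 had 14 with 10 or more genes higher and 26 with 10 or more lower. Other windows include gene families described above, among unrelated genes: keratins on chromosome 17 (10 of 20 lower), SPRR and S100 genes on chromosome 1 (13 of 20 lower) and HLA class II genes on chromosome 6 (10 of 20 higher). Several genes named above lie in the long stretches, TAGLN, ST14 and SC5D on chromosome 11 and HSP90AA1 and BCL11B on chromosome 14. DNA was not measured in these files, and the part of gene copy number in these changes was not tested. This pattern was looked for after the values were seen and has no test.

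**Figure D4:**
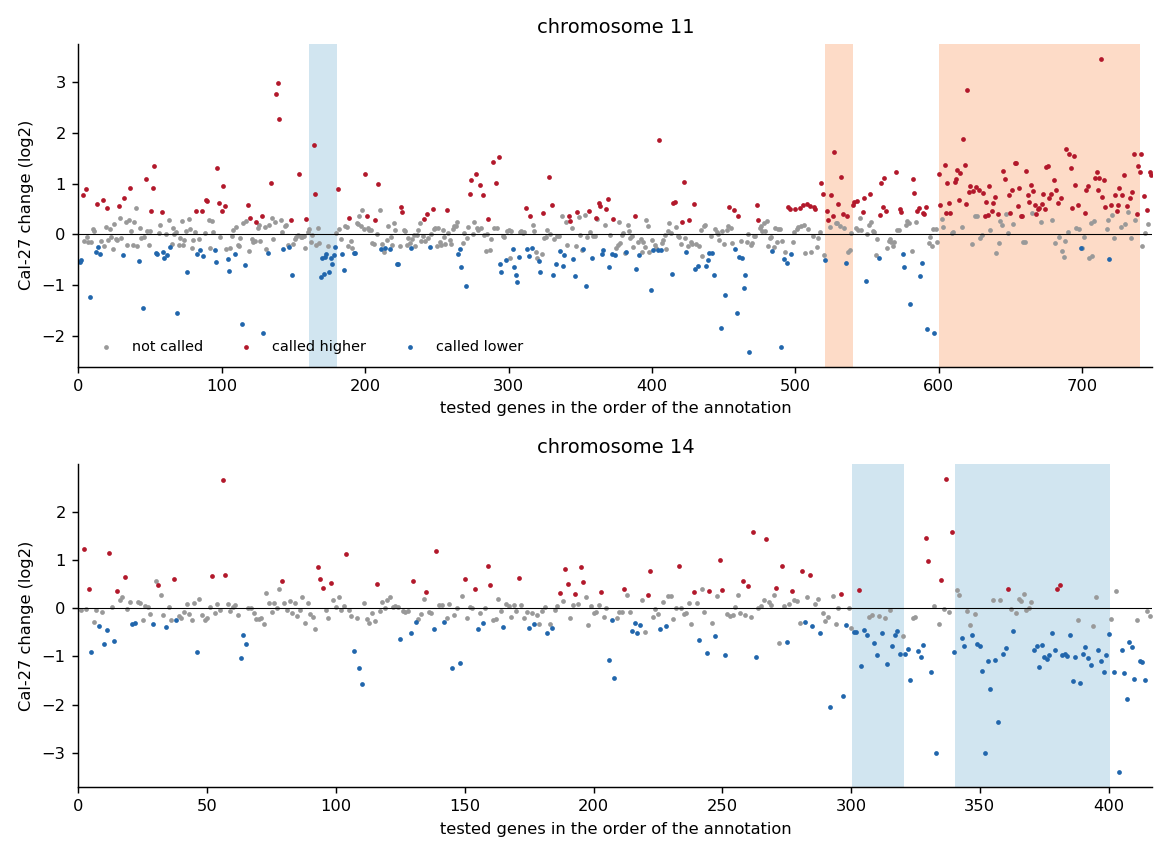
Change in Cal-27 (log2, resistant minus sensitive, vertical axis) of the tested genes of chromosomes 11 and 14, in the order of the annotation (horizontal axis). Shading marks windows with 10 or more of 20 genes called higher (orange) or lower (blue): 65.7% of the 140 genes in the long orange stretch rose, and 65.0% of the 60 genes in the long blue stretch fell.

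The change in Cal-27 was set against that in SCC-25. The same fit called 4259 genes in SCC-25 (33.4%), and the interaction test called a different change in the 2 lines for 4653 genes (36.5%). Of the 4700 genes called in Cal-27, 2932 were among them, a count that the choice by the Cal-27 change itself raises. Of genes called in both lines, 514 rose in both, 553 fell in both, 466 rose in Cal-27 and fell in SCC-25, and 380 did the reverse, so 1067 shared their direction and 846 did not. ASNS changed by 2.39 ± 0.23 in Cal-27, against -2.31 ± 0.23 in SCC-25 (limma interaction adjusted p = 3.29e-07). PPP2R2B, a regulatory subunit of protein phosphatase 2A, had levels of 6.30, 6.38 and 6.34 in resistant and 9.46, 9.45 and 9.41 in sensitive Cal-27 arrays. On this probe, its brightest, it fell by 3.10 ± 0.12 in Cal-27, against a rise of 3.05 in SCC-25 (limma interaction adjusted p = 3.20e-10). Another of its probes fell by 1.71 ± 0.13 in Cal-27. A further one, at 7.66 in resistant and 7.59 in sensitive arrays, was not called (0.07 ± 0.10). Of the 37 ATF4-list genes, 35 differed between the lines, and 18 fell and 2 rose in SCC-25. Of the 12 HLA class II genes 10 differed, and of the 40 mitotic genes 24 differed, with 16 higher and none lower in SCC-25. Desmosome and gap junction genes fell in both lines, 13 of 14 in Cal-27 and 9 of 14 in SCC-25, and 8 of the 14 changes differed between the lines, 6 of them lower in Cal-27.

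**Figure D5:**
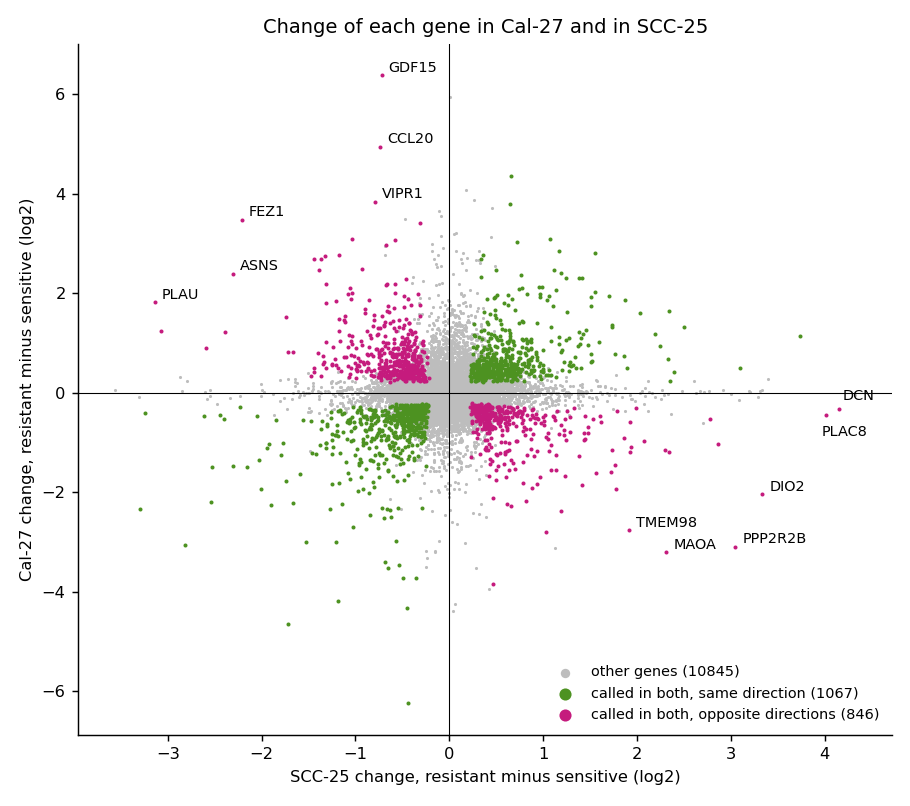
Change of each gene in Cal-27 (log2, resistant minus sensitive, vertical axis) and in SCC-25 (horizontal axis). Green points are the 514 and 553 genes called in both lines in the same direction, magenta points the 466 and 380 called in opposite directions, and the named genes have the largest interactions among these.

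Probes of 1 gene were seldom called in opposite directions, but often only some of them were called. Of 17119 probes 6044 were called (35.3%). Of 3439 genes with several tested probes, 666 had all of them called in 1 direction, 1096 had some called in 1 direction, 1662 had none called and 15 had probes called in opposite directions. EGFR and ERBB3 are among the 15.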

How the data were processed

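RNA of the Cal-27 and SCC-25 arrays was measured on Illumina HT-12 beadchips. Per the file headers, the authors deposited for each array a mean bead intensity, a bead number and a detection p-value per probe, without normalization, and the submitters' processing notes name GenomeStudio, with no version given. The separate table of FaDu and SQ20B arrays was not used here. Gene symbols came from the platform annotation: 30113 of 47231 probes had 1 symbol, 8 had several and 17110 were not listed.

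Intensities of the 12 arrays were background-corrected with normexp, whose background was estimated from the detection p-values because no control probes entered, given an offset of 16, quantile normalized and put on the log2 scale (neqc, limma 3.58.1 in R 4.3.3). Probes detected at p under 0.05 on 3 or more arrays were fitted with lmFit and eBayes over the 4 groups, with the change in each line and their difference (interaction) as contrasts, and p-values were adjusted by Benjamini-Hochberg over 17119 probes. A gene was read from its brightest tested probe. Where no array of a group detected a gene, the fold is a lower bound: the other group's mean was set against the mean of, per array, the higher of the gene's own level and the lowest level detected on that array. The authors' processed values, also deposited as intensities, served as an alternative after a floor of 1 and log2. The procedure was tested on simulated data.

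The genes described and 53 gene lists (1202 distinct genes, 995 measured) were chosen with earlier results of these data known. Named genes are the 12 highest and 12 lowest changes, the 3 or fewer largest called members of each list in each direction, members of 5 lists described one by one, and the 6 largest interactions in each direction among genes called oppositely in both lines. Names outside this rule, among them DSG2, TLR4 and the ATF4 transcript, were chosen after their values were seen. Same-numbered arrays deviated little together, with correlations of 0.03, -0.01 and 0.03 across genes, against -0.0458 to 0.0188 for arrays of different numbers. The labels do not say whether the numbers pair the arrays, and these values cannot settle it. Promoter windows are from RefSeq, GRCh38.p14, restricted to genes with 1 window.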

Additional observations from a re-analysis of the deposited data

Results flagged for a closer look

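The results given here are those in which the Cal-27 change differed from the SCC-25 change by limma's interaction test. Over all genes the change was higher in Cal-27 for 2276 genes and lower for 2377. Among genes called in opposite directions in the 2 lines, the largest positive differences (Cal-27 change minus SCC-25 change, log2) were those of GDF15 at 7.10, FEZ1, an axonal transport adaptor, at 5.68, and CCL20 at 5.68. PLAU followed at 4.95, ASNS at 4.69 and VIPR1, a receptor for vasoactive intestinal peptide, at 4.62. The change of GDF15 was 6.37 in Cal-27, against -0.72 in SCC-25, and that of PLAU was 1.81 in Cal-27, against -3.14 in SCC-25.

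The largest negative difference was that of PPP2R2B at -6.15, read from its brightest probe. MAOA, monoamine oxidase A, followed at -5.52 and DIO2, a thyroid hormone deiodinase, at -5.38. TMEM98, a membrane protein, stood at -4.68, DCN, the proteoglycan decorin, at -4.47, and PLAC8 at -4.45. MAOA and DIO2 were undetected on the Cal-27 resistant arrays, at least 6.14-fold and 3.29-fold lower than in sensitive arrays. DCN was above background on none of the 6 Cal-27 arrays, so its difference rests on a rise of 4.15 in SCC-25. PLAC8 was detected on 1 Cal-27 sensitive array only, and its difference rests on a rise of 4.01 in SCC-25. The Cal-27 calls of DCN and PLAC8 were each kept under 10 of 16 other settings, so under the other 6 they were not called in opposite directions. Groups of 3 arrays were not tested for outlying arrays.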

How the results depend on the processing

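The 16 alternatives gave 3865 to 5072 called genes, against 4700. Leaving out 1 array at a time gave 1892 to 2040 genes higher and 1951 to 2049 lower. With the replicate number as a block, 2199 genes were higher and 2304 lower, 4410 of them shared in direction with the 4700. The labels do not say that the numbers pair the arrays. Median scaling called 3964 genes, 56.1% of them higher, against 48.7%, and reduced the differences from SCC-25 that were lower in Cal-27 to 1456. Counts of at least 2-fold changes depended most on the background step: 192 higher and 125 lower without correction, and 255 higher and 180 lower with an offset of 50. The authors' processed values gave 554 genes at least 2-fold lower. Genes with probes called in opposite directions numbered 8 with those values, 9 under stricter detection and 8 to 13 without 1 array. Of values that turned sign, ERBB3 was called and stood at -0.073 with the mean of its probes. The others were not called: leaving out 1 array at a time gave -0.031 to 0.044 for ADAM10, -0.058 to 0.022 for CDK4, -0.047 to 0.090 for HLA-DOB and -0.059 to 0.207 for IL1RL1. The cause was not tested. With windows of 40 genes, an alternative chosen after seeing the data, 3 windows had 20 or more genes higher and 3 had 20 or more lower.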

Other observations

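Probes with no listed gene also changed in Cal-27. Of 6082 such probes detected on 3 or more of the 12 arrays, 1157 were called by limma (19%), 582 higher and 575 lower in resistant cells, and 104 were at least 2-fold higher and 70 at least 2-fold lower.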
